A study of Mus musculus with 4 samples.

Results

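The Hox genes of the mouse were examined in cultured oesophageal cells with and without a tumour-derived change in NRF2. All rows of the deposited expression matrix whose symbol names a gene of the Hoxa, Hoxb, Hoxc or Hoxd cluster were taken, 39 of 24444 genes in 4 clusters. Poly(A) RNA was sequenced in 4 libraries of C57BL/6J cells. The 2 Nrf2-HET libraries carry the Nfe2l2-E79Q cassette, introduced by CRISPR/Cas9 microinjection, and the 2 Nrf2-WT libraries carry no cassette. Nfe2l2 encodes NRF2, the transcription factor of antioxidant and detoxification genes, and the series title calls the mouse conditional. The sources used here name no Cre that would switch on the allele, and they do not say whether replicates came from separate animals or cultures. P-values therefore measure only the spread between these libraries, which may be technical. Every column name carries the word SV40, which the labels do not explain.

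Hox genes encode homeodomain transcription factors that give cells their position along the head-to-tail axis. Within each cluster the genes are numbered from the 3′ end, and in the embryo the low numbers act in the neck and anterior trunk and the high numbers towards the tail, limbs and genital tract. Genes with the same number in different clusters are paralogues. HOX proteins bind DNA together with TALE homeodomain proteins of the PBX and MEIS families. Retinoic acid switches on genes at the 3′ end, and Polycomb proteins keep silent Hox genes off. Cultured cells of adult organs often keep a Hox pattern that records where they came from.

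The values are variance-stabilised log2-like numbers made by the authors. A gene without reads sits at a floor of 6.98, and 1 read lifts a library by between 0.12 and 0.13 above it. The scale therefore compresses differences of weakly expressed genes, and differences are also given as normalised counts, recovered by inverting the stabilisation at the group mean. These counts are approximate, because a check for whole reads succeeded only for genes with reads in 1 library. Group means and the difference within a replicate number are as the authors' step left them. Values of single libraries are not, because every gene of the table had been centred by replicate number. As a result the HET and WT values of 1 replicate number add up to the same sum as those of the other.

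The estimated depth was 15150000 and 13010000 reads in Nrf2-HET libraries and 14150000 and 12610000 reads in Nrf2-WT libraries. Nfe2l2 itself had 11.17 and 11.27 in Nrf2-HET libraries, against 11.38 and 11.27 in Nrf2-WT libraries, and was not called. The change is a substitution, so this level does not check the genotype. Nqo1, a quinone reductase and classical NRF2 target, lay at 10.88 and 10.87 in Nrf2-HET libraries, against 8.64 and 8.65 in Nrf2-WT libraries. Of 16 squamous epithelium markers, Krt5, Krt14 and Trp63 were among those high in all 4 libraries, but others were much lower. Krt4 had 163 normalised counts in Nrf2-HET and 188 in Nrf2-WT cells, and Ly6d had 190 in Nrf2-HET and 150 in Nrf2-WT cells. The simple epithelium keratins were high too, with means for Krt7 of 12.98 in Nrf2-HET and 13.81 in Nrf2-WT cells. Xist, the RNA of the inactive X chromosome, lay at 7.30 and 7.12 in Nrf2-HET libraries, against 11.99 and 12.17 in Nrf2-WT libraries. Eif2s3y, a Y-linked gene, lay between 9.81 and 9.92 in all 4 and was not called. Of 6 sex-linked transcripts tested, 2 were called lower, Xist among them, and 2 higher in Nrf2-HET cells, both Y-linked. Of the latter Uty lay at 9.04 and 9.09 in Nrf2-HET libraries, against 8.78 and 8.73 in Nrf2-WT libraries. The groups thus differ in Xist and in some Y-linked transcripts as well as in genotype, and effects of these cannot be told apart.

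The cells expressed Hox genes of the A, B and C clusters up to paralogue 9, though not all of them. Of these Hoxb1, Hoxa6 and Hoxb5 were near the floor in both groups. Hoxb8 and Hoxc8 had 0.675 and 0.90 normalised counts in Nrf2-HET cells. Hoxa10 was at a low level, and the D cluster and other genes from paralogue 10 on gave no more than traces. Of the 39 genes, 29 lay above the floor and 10 had no read in any library. The 10 silent genes were Hoxa11, Hoxa13, Hoxc11, Hoxc12, Hoxd1, Hoxd3, Hoxd4, Hoxd10, Hoxd11 and Hoxd12. A count of 0 allows at most 3 reads per library, or between 0.198 and 0.238 RPM, counting error only. By cluster, 9 of 11 Hoxa genes, 10 of 10 Hoxb genes, 7 of 9 Hoxc genes and 3 of 9 Hoxd genes were above the floor. Among paralogues 1 to 9 there were 24 of 27, and among paralogues 10 to 13 there were 5 of 12. Of the Hox genes 25.6% were at the floor, against 33.2% of all genes.

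**Figure D1:**
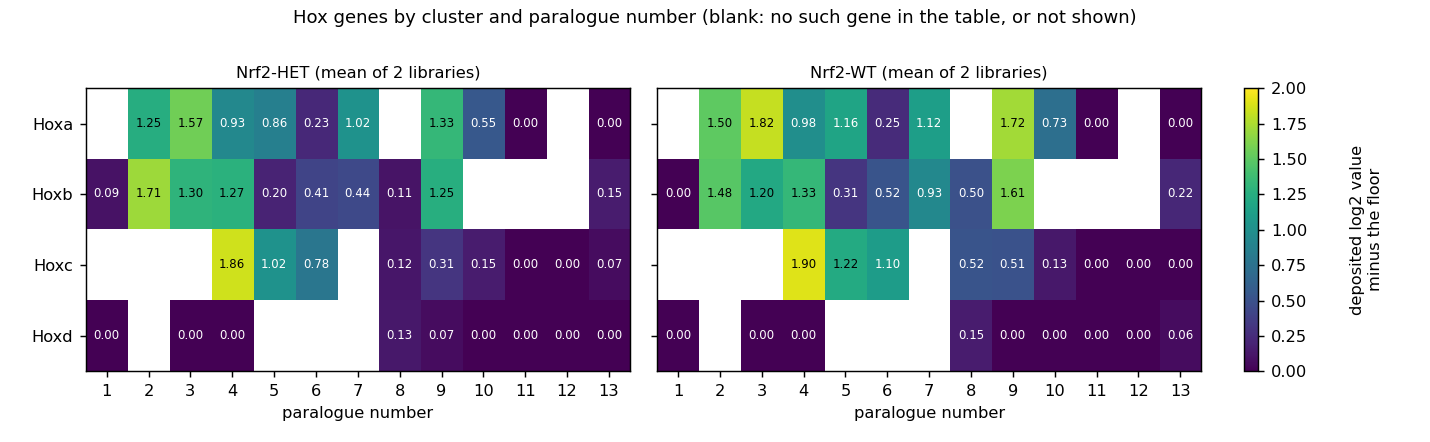
Mean deposited log2 value minus the floor for each Hox gene shown, in Nrf2-HET (left) and Nrf2-WT cells (right), with clusters as rows and paralogue numbers as columns. The Hoxd row is close to 0 throughout, and paralogues 11 and 12 are at 0 in every cluster that has them.

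Of the genes above the floor, 4 had reads in 1 library only. Hoxb1, a gene of the hindbrain, had 2 reads, and Hoxc13, a regulator of hair and nail keratins, and Hoxd9 had 1 read each, all in Nrf2-HET replicate 2. Hoxd13, a gene of the digits, had 1 read, in Nrf2-WT replicate 1. Hoxd8 had mean normalised counts of 1.04 in Nrf2-HET and 1.39 in Nrf2-WT cells, so no Hoxd gene exceeded a trace. Hoxc10 had 1.41 in Nrf2-HET and 1.02 in Nrf2-WT cells, and Hoxb13 had 1.41 in Nrf2-HET and 3.06 in Nrf2-WT cells.

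In summed normalised counts the Hox genes reached 1578 in Nrf2-HET and 2047 in Nrf2-WT cells. The Hoxa cluster held 43.3% of this sum in Nrf2-HET and 47.1% in Nrf2-WT cells, the Hoxb cluster 34.3% in Nrf2-HET and 30.4% in Nrf2-WT cells, and the Hoxc cluster 22.3% in Nrf2-HET and 22.4% in Nrf2-WT cells. These sums have no test. Per kilobase of the principal GENCODE transcript, the 3 highest levels over all 4 libraries were those of Hoxc4 at 124 normalised counts, Hoxb2 at 105 and Hoxa3 at 75.1. Lower levels included Hoxa2 at 69.5 counts per kilobase, with Hoxb9 at 52.1 and Hoxa9 at 48.1. The spread of these per-length levels between libraries was not estimated, so neighbours in the order are not shown to differ.

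A gene entered the test where at least 2 libraries reached 7.90, which is 1 above the lowest deposited value and stands for about 53 normalised counts. This left 14 Hox genes and 10857 genes in all. Calls are adjusted p-values under 0.05 in limma's moderated test with replicate number as a block, adjusted over all genes tested (Benjamini-Hochberg). Of the 14 Hox genes, 7 fell and 1 rose in Nrf2-HET cells, and 6 did not pass. Of all genes tested, 40.4% were called, 18.9% lower and 21.5% higher. Among the 2443 genes with a mean in the range of these 14, 18.1% were called lower and 13.8% higher. The median difference was -0.15 over the tested Hox genes and 0.01 over all genes tested. With 2 pairs no exact test can go below a two-sided p of 0.5, so each call leans on a variance shared across genes.

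Hoxa5 and Hoxc6 entered the test through the Nrf2-WT libraries alone, so a difference was built into their entry, and neither the count of 7 nor the median is support by itself. Without them 5 of 12 fell and the median difference was -0.08. A filter on the mean of all 4 libraries, 0.3 above the lowest value of 6.897, was chosen after the data were seen. It does not use the group labels and admitted 22 Hox genes. Hoxb5, Hoxb8 and Hoxc8 passed it only through their Nrf2-WT values, with Nrf2-HET means of 7.18, 7.08 and 7.10 under the cut. Of the 22, 10 fell, Hoxb8 and Hoxc8 among them, and 1 rose, while 36.6% of all genes in that fit were called, 17.7% lower and 18.8% higher. With no filter 9 of 29 Hox genes fell and 1 rose, while 11.2% of all genes in that fit were called lower and 12.3% higher. Genes of 1 cluster lie next to each other and are not independent of each other.

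**Figure D2:**
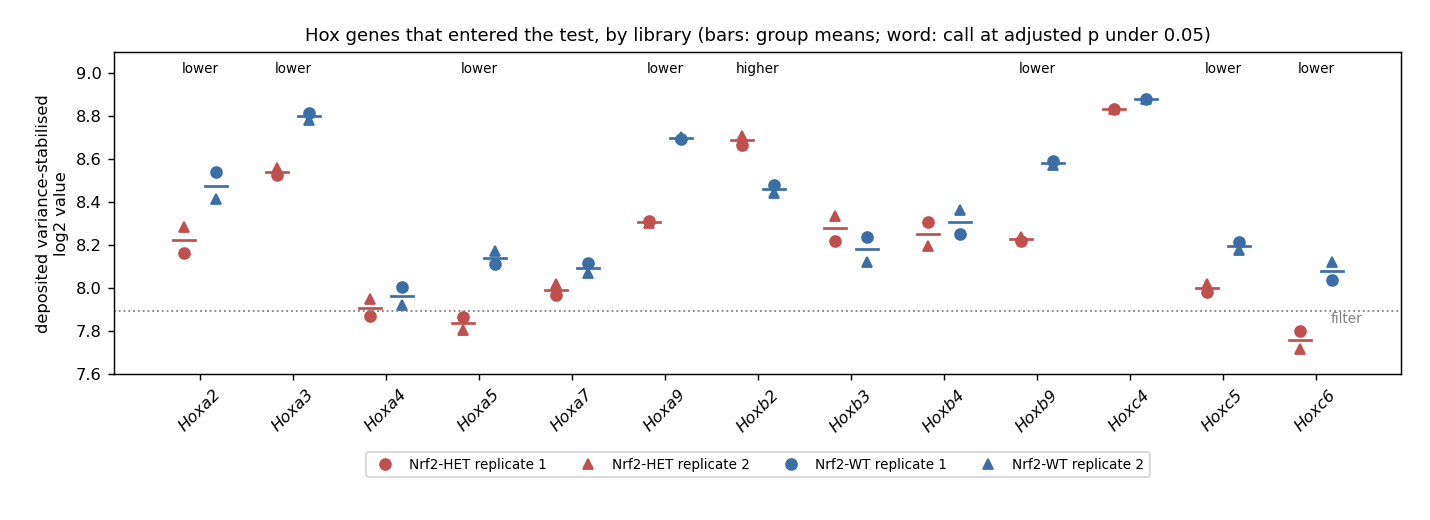
Deposited log2 values of the tested Hox genes named in the text, in each library, Nrf2-HET in red left of Nrf2-WT in blue, with circles for replicate 1, triangles for replicate 2 and bars for group means. The groups overlap in Hoxa4, Hoxb3 and Hoxb4; the dotted line is the filter value of 7.90.

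Promoters of a few members are shown for what their letters hold. They come from RefSeq on GRCm38.p6, 250 bases before to 50 after the start, and the table has an entry for 22 of the 39 genes. Hoxa5 and Hoxa9 fell, Hoxa7 lies between them on chromosome 6 and was not called, and Hoxc4 had the highest level and was not called. Capitals mark TGANNNNGC on either strand, a loose form of the antioxidant response element that NRF2 binds.
Hoxa5, chr6:52204538-52204837, minus strand: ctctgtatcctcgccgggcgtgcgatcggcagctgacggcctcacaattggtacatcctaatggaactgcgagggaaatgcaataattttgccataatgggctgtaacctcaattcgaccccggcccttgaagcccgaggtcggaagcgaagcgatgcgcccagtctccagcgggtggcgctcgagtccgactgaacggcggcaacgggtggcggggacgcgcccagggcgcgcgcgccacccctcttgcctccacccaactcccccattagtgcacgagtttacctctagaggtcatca
Hoxa9, chr6:52227321-52227620, minus strand: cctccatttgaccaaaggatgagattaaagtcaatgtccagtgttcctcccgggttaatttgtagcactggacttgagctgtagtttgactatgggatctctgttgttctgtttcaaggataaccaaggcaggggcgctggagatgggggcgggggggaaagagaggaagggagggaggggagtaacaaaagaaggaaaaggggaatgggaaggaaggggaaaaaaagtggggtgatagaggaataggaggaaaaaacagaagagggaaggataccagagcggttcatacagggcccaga
Hoxa7, chr6:52218524-52218823, minus strand: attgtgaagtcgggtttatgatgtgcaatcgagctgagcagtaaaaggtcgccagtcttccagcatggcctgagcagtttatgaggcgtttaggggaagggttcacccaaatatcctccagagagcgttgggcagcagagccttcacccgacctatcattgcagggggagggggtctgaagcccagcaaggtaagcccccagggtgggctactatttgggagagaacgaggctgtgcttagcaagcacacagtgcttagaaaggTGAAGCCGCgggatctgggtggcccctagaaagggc
Hoxc4, chr15:103034145-103034444, plus strand: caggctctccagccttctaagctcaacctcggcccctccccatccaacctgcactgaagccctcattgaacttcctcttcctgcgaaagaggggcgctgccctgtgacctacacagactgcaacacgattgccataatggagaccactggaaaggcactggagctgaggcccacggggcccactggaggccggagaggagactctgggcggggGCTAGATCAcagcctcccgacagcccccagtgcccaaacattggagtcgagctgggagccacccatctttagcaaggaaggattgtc

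The loose core TGANNNNGC was absent from the Hoxa5 and Hoxa9 windows and present once each in those of Hoxa7 and Hoxc4. It occurred in 9 of 24 Hox promoter windows (37.5%) and in 41.3% of all 32851 windows. The tighter core TGACNNNGC, every match of which is also a match of the loose one, occurred in 2 of 24 Hox windows (8.33%), 0 of the 7 of tested genes, and 12.4% of all windows. TGATNNAT, the letters of a joint HOX and PBX site, occurred in 4 of 24 Hox windows (16.7%), that of Hoxa2 among them, and in 8.85% of all windows. Both strands were searched, and a match is a description of the letters alone. The 9 windows of Hox genes at the floor had a median of 20 CpG dinucleotides, the 7 of tested Hox genes 9, and all windows 7.

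Paralogues 1 to 4, which pattern the hindbrain, pharyngeal arches and neck, moved unevenly. Hoxa2, which sets the identity of the second pharyngeal arch, had 8.16 and 8.29 in Nrf2-HET libraries, against 8.54 and 8.42 in Nrf2-WT libraries. Hoxa2 was lower in Nrf2-HET cells in both pairs, with a difference of -0.25 ± 0.08 (limma adjusted p = 0.0157). Its mean normalised counts were 100.3 in Nrf2-HET and 149 in Nrf2-WT cells. The call of Hoxa2 was lost without the replicate block (limma adjusted p = 0.0567), a fit that called 7 Hox genes and 55.3% of all genes. As the values were already centred by replicate number, that fit does not undo the pairing and is no check of it.

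Hoxb2, a hindbrain gene and paralogue of Hoxa2, moved the other way. It had 8.67 and 8.71 in Nrf2-HET libraries, against 8.48 and 8.44 in Nrf2-WT libraries, and was higher in both pairs. The difference was 0.23 ± 0.07 (limma adjusted p = 0.0157), with 199 normalised counts in Nrf2-HET and 146 in Nrf2-WT cells. Hoxb2 was the single Hox gene called higher. In GENCODE it shares exon sequence with the antisense gene Hoxb3os, and the sources used here do not give the strand setting, so reads of the pair cannot be told apart. Exon overlaps with another gene exist for 12 of the 39 Hox genes, Hoxb3 and Hoxa7 among them. Hoxa2 and Hoxa3 share exon sequence with Gm28308 on their own strand.

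Hoxa3, which patterns the thymus and parathyroid, had 8.53 and 8.56 in Nrf2-HET libraries, against 8.82 and 8.78 in Nrf2-WT libraries. It fell by 0.26 ± 0.07 (limma adjusted p = 0.00677), to 163 normalised counts in Nrf2-HET against 229 in Nrf2-WT cells. The antisense transcript Hoxaas2, which overlaps Hoxa3, had 29.5 normalised counts in Nrf2-HET and 45.6 in Nrf2-WT cells and was below the filter. Hoxb3 had 8.22 and 8.34 in Nrf2-HET libraries, against 8.24 and 8.12 in Nrf2-WT libraries, and the pairs went in opposite directions.

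None of the paralogue 4 genes was called. Hoxc4 had 8.83 and 8.83 in Nrf2-HET libraries, against 8.88 and 8.88 in Nrf2-WT libraries, a small difference of -0.05 ± 0.07 (limma adjusted p = 0.597). Hoxa4 had 7.87 and 7.95 in Nrf2-HET libraries, against 8.004 and 7.92 in Nrf2-WT libraries. Hoxb4, known from blood stem cells, had 8.31 and 8.20 in Nrf2-HET libraries, against 8.25 and 8.36 in Nrf2-WT libraries. In both of these the groups overlapped. Hoxd4 was at the floor.

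Paralogues 5 to 7 were lower in Nrf2-HET cells or showed differences too small to pass. Hoxa5, which is needed for the trachea and lung, had 7.87 and 7.81 in Nrf2-HET libraries, against 8.11 and 8.17 in Nrf2-WT libraries. It fell by 0.30 ± 0.07 (limma adjusted p = 0.00432), to 46.2 normalised counts in Nrf2-HET against 86.7 in Nrf2-WT cells, 1.88-fold lower. Hoxa5 entered this test through the Nrf2-WT libraries alone. Its limma adjusted p was 0.0153 with no filter and 0.00145 with the filter on the mean. Hoxc5 had 7.98 and 8.02 in Nrf2-HET libraries, against 8.22 and 8.18 in Nrf2-WT libraries. Its fall of 0.20 ± 0.07 (limma adjusted p = 0.0406) was not called without a filter (adjusted p = 0.0703) or after quantile normalization (adjusted p = 0.0947). Hoxb5 had only 2.41 normalised counts in Nrf2-HET and 5.89 in Nrf2-WT cells.

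Hoxc6, a thoracic gene, had 7.80 and 7.72 in Nrf2-HET libraries, against 8.04 and 8.12 in Nrf2-WT libraries. It fell by 0.32 ± 0.08 (limma adjusted p = 0.00360), to 37.9 normalised counts in Nrf2-HET against 77.3 in Nrf2-WT cells, 2.04-fold lower. Hoxc6 too entered through the Nrf2-WT libraries alone. Its limma adjusted p was 0.0146 with no filter and 0.000961 with the filter on the mean. Hoxb6, below the filter, had 7.42 and 7.36 in Nrf2-HET libraries, against 7.47 and 7.53 in Nrf2-WT libraries, and Hoxa6 was near the floor in both groups. Hoxa7 had 7.97 and 8.02 in Nrf2-HET libraries, against 8.12 and 8.07 in Nrf2-WT libraries. The groups of Hoxa7 did not overlap, but its difference of -0.10 ± 0.07 was not called (limma adjusted p = 0.294). Non-overlapping groups were common in this table, in 79.2% of tested genes and in 11 of the 14 tested Hox genes. After the centring by replicate number, groups fail to overlap wherever both pairs differ in the same direction. Non-overlap therefore says nothing beyond the pair directions.

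Hoxb7 was the member just below the filter, with 7.39 and 7.46 in Nrf2-HET libraries, against 7.95 and 7.87 in Nrf2-WT libraries. Its mean normalised count was 12.1 in Nrf2-HET and 54.5 in Nrf2-WT cells, and its log2 difference of -0.49 had the largest size among the 39 genes. It was called lower where it was tested, with the filter on the mean (adjusted p = 2.82e-06) and with no filter (adjusted p = 0.00198, limma). Hoxb8 had 0.675 normalised counts in Nrf2-HET and 15.2 in Nrf2-WT cells, and Hoxc8 had 0.90 in Nrf2-HET and 16.6 in Nrf2-WT cells. In log2 values Hoxc8 had 7.20 and 6.997 in Nrf2-HET libraries, against 7.40 and 7.601 in Nrf2-WT libraries. Both were called lower in the same pair of fits. With no filter the limma adjusted p was 0.00824 for Hoxb8 and 0.0220 for Hoxc8. With the filter on the mean, which both passed only through their Nrf2-WT values, it was 0.000189 for Hoxb8 and 0.000305 for Hoxc8. At fewer than 1 normalised count in Nrf2-HET cells no fold is given for these genes.

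On the log2 scale Hoxa9 and Hoxb9 of paralogue 9 had the largest falls among the tested genes. In normalised counts Hoxc6 (2.04-fold) and Hoxa5 (1.88-fold) fell further. Hoxa9, a gene of the posterior trunk known from leukaemia, had 8.31 and 8.31 in Nrf2-HET libraries, against 8.70 and 8.71 in Nrf2-WT libraries. The difference was -0.39 ± 0.07 (limma adjusted p = 0.000304), with 115 normalised counts in Nrf2-HET against 203 in Nrf2-WT cells, 1.76-fold lower. Hoxb9, which acts in the thoracic skeleton, had 8.22 and 8.24 in Nrf2-HET libraries, against 8.59 and 8.58 in Nrf2-WT libraries. It fell by 0.36 ± 0.07 (limma adjusted p = 0.000808), to 101 normalised counts in Nrf2-HET against 173 in Nrf2-WT cells, 1.72-fold lower.

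Hoxc9 pointed the same way at a low level, with 7.33 and 7.25 in Nrf2-HET libraries, against 7.44 and 7.52 in Nrf2-WT libraries. It was not called with the filter on the mean or without a filter. Hoxa10, a gene of the uterus and lumbar skeleton, had 7.58 and 7.48 in Nrf2-HET libraries, against 7.66 and 7.76 in Nrf2-WT libraries. It was the highest gene of paralogues 10 to 13, with 18.8 normalised counts in Nrf2-HET and 33.0 in Nrf2-WT cells, and was not called in either fit.

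By replicate number, 18 of the 29 genes above the floor were lower in Nrf2-HET cells in both pairs, 1 (Hoxb2) was higher in both, and 10 were neither, counting differences over 0.001. Over all 16324 genes above the floor, 34.1% were lower and 32.8% higher in both pairs. Among paralogues 1 to 4 this was 4 lower and 1 higher of 9, among paralogues 5 to 10 it was 13 lower and 0 higher of 17, and of the 3 paralogue 13 genes 1 was lower. Calls in the fit with the filter on the mean rest on the same pair differences and add no separate support. They were 2 lower and 1 higher of 8 genes of paralogues 1 to 4. Of 14 genes of paralogues 5 to 10, 8 were called lower, Hoxb8 and Hoxc8 among them, and 0 higher. Of all genes in that fit 17.7% were called lower and 18.8% higher. The median difference was -0.05 in the low group of numbers and -0.25 in the high one. This division of the numbers was made after the values were seen and the difference between the 2 groups of numbers was not tested. By cluster, 7 of 9 Hoxa, 6 of 10 Hoxb, 5 of 7 Hoxc and 0 of 3 Hoxd genes were lower in both pairs.

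**Figure D3:**
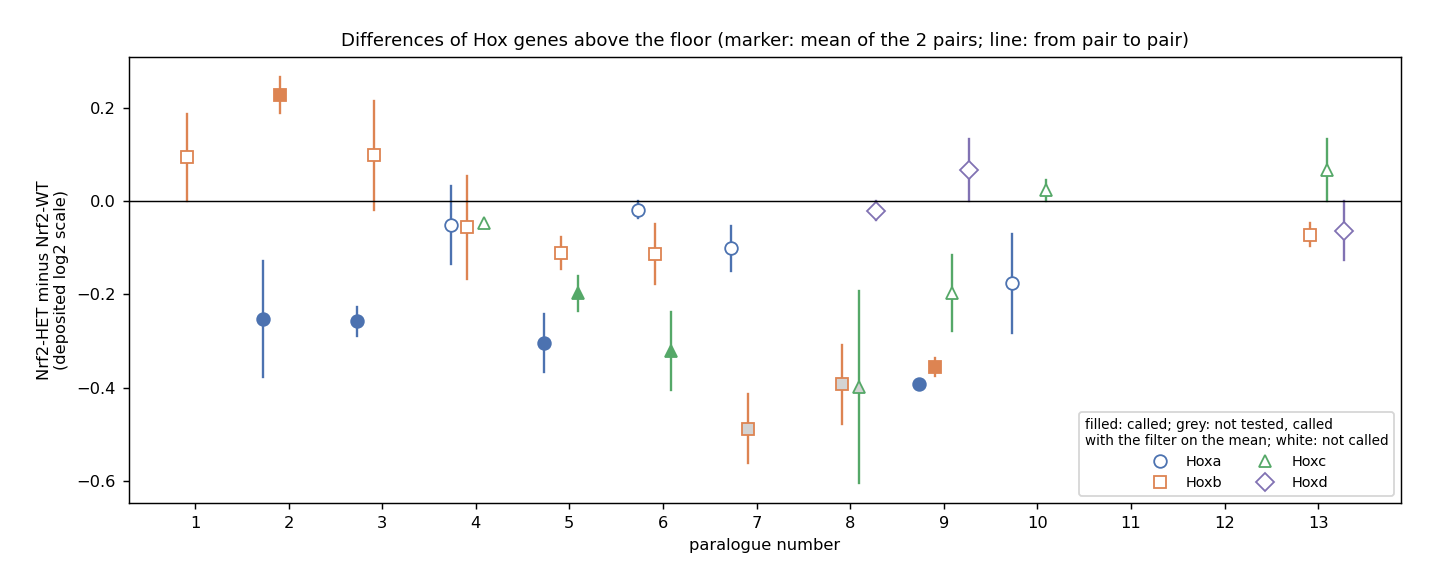
Nrf2-HET minus Nrf2-WT on the deposited log2 scale for the Hox genes shown that lay above the floor, by paralogue number, with a marker for the mean of both pairs, a line joining the pair differences, and a fill for called (colour), not tested but called with the filter on the mean (grey) or not called (white). Markers of paralogues 5 to 9 of the Hoxa, Hoxb and Hoxc clusters all lie below 0, while Hoxb2 lies above 0 at 0.23.

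Among the TALE cofactors, with which HOX proteins bind DNA, 4 fell and 1 rose of 10 tested (12 listed), with a median of -0.06. The share to set beside this list and those below is that of all genes tested, 18.9% lower and 21.5% higher. No list was tested as a set. Pbx2 fell by 0.19 ± 0.06, and Pbx3 was also called lower. Pbxip1, which binds PBX proteins and keeps them from DNA, fell by 0.54 ± 0.06. Tgif1, a TALE repressor of TGF-beta and retinoid signalling, rose by 0.69 ± 0.10. The MEIS family did not pass, with Meis1 at 0.09 ± 0.07, Meis2 at 0.02 ± 0.06 and Meis3 at -0.11 ± 0.07.

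All 31 Polycomb subunits listed entered the test, and 6 rose and 4 fell, with a median of 0.01, close to that of all genes. The largest called changes were the fall of Cbx6 (0.44 ± 0.05) and the rises of Phc2 (0.30 ± 0.06), Rybp (0.27 ± 0.07) and Ezh1 (0.23 ± 0.06). Ezh2, the main H3K27 methyltransferase, differed by -0.10 ± 0.05 and was not called. In the list of Trithorax, H3K27 demethylase and CTCF genes, 8 rose and 4 fell of 25 tested, with a median of 0.05. Kdm6b, an H3K27 demethylase, rose by 0.47 ± 0.06, and Men1, a partner of the MLL methyltransferases, fell by 0.34 ± 0.05. Y-linked Uty rose by 0.31 ± 0.07 and Kmt2c by 0.24 ± 0.06. Ctcf, whose protein marks boundaries within Hox clusters, lay at -0.04 ± 0.05.

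Of retinoic acid genes 4 rose and 4 fell of 15 tested (24 listed), with a median of 0.01. Crabp1, a cellular retinoic acid binding protein, had 7.70 and 7.69 in Nrf2-HET libraries, against 8.84 and 8.85 in Nrf2-WT libraries, a fall of 1.15 ± 0.07. Crabp2 fell by 0.30 ± 0.08. Dhrs9, a retinol dehydrogenase, rose by 0.83 ± 0.07. Rarb, a retinoic acid receptor that is itself a target of retinoic acid, was below the filter at 0.645 normalised counts in Nrf2-HET and 10.9 in Nrf2-WT cells. The receptor genes Rara, Rarg and Rxra were not called.

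Among foregut and regional identity factors 4 rose and 5 fell of 15 tested (33 listed), with a median of -0.03. Sox2, a factor of the oesophageal lining, had 9.11 and 9.08 in Nrf2-HET libraries, against 9.53 and 9.56 in Nrf2-WT libraries, a fall of 0.45 ± 0.06. Pitx1 fell by 0.34 ± 0.05, while Irx2 rose by 0.44 ± 0.07 and Irx3 by 0.42 ± 0.07. Pax9, a factor of the pharynx and oesophagus, differed by -0.02 ± 0.06. Of the list of embryonic signals, 2 rose and 2 fell of 7 tested, with Lin28b, which holds back let-7 microRNAs, down by 0.39 ± 0.08 and Gdf11, a signal for posterior Hox genes in the embryo, down by 0.20 ± 0.07. Snai2, a transcription factor of migrating neural crest, rose by 0.27 ± 0.06.

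**Figure D4:**
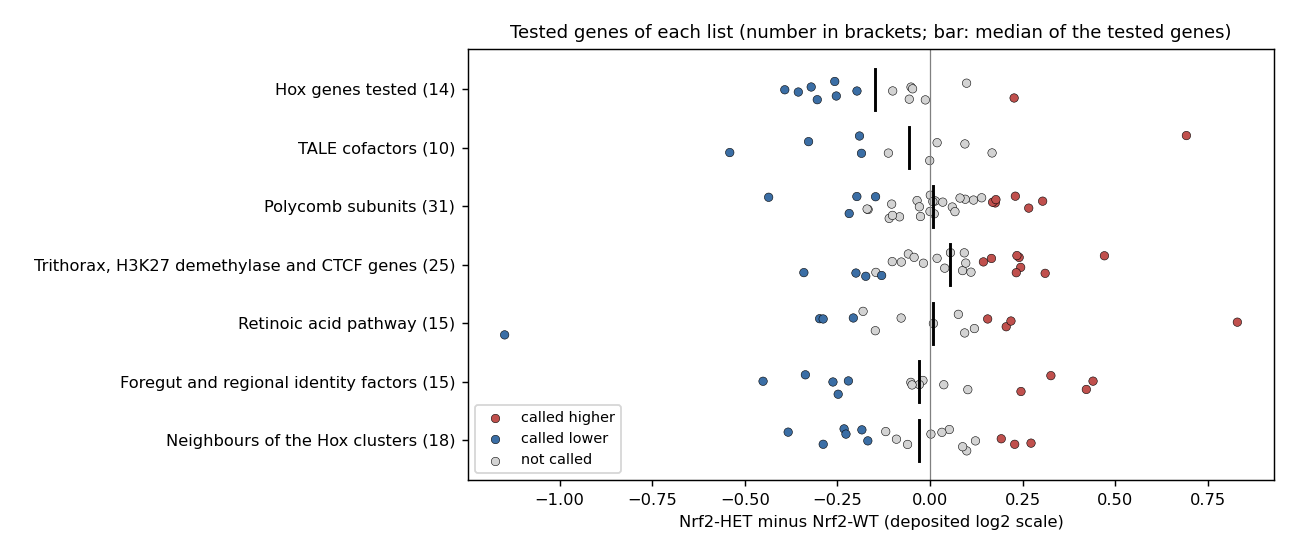
Nrf2-HET minus Nrf2-WT on the deposited log2 scale for each tested gene of 7 lists, with red for called higher, blue for called lower, grey for not called, and a bar for the median of the tested genes. The Hox median of -0.15 includes Hoxa5 and Hoxc6 and is -0.08 without them, and the Polycomb median is 0.01.

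Transcripts and genes around the clusters did not share 1 direction. Of 16 listed noncoding transcripts of the clusters that are in the table, 12 were at the floor, among them Hotair, Hottip and Haglr, and none was tested. Among genes of the ParaHox and Evx families none was high enough to test. The 3 nearest protein-coding genes on each side of each cluster gave 23 genes in the table, of which 18 were tested, with 3 called higher and 6 lower and a median of -0.03. Atp5g3 beyond the Hoxd cluster fell by 0.38 ± 0.05. Beside the Hoxa cluster Skap2 fell by 0.29 ± 0.05, while Snx10 rose by 0.27 ± 0.06, and Calcoco1 beside the Hoxc cluster fell by 0.23 ± 0.06.

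Hox levels can differ between cell types, and in bulk RNA fewer cells of a type and less RNA per cell cannot be told apart. Of 18 fibroblast markers 5 were tested, with 3 lower, 1 higher and a median of -0.51. Their summed normalised counts were 2400.5 and 2428 in Nrf2-HET libraries, against 3838 and 3865 in Nrf2-WT libraries, with Lum, Dpt and Pi16 at the floor. Vim fell by 1.62 ± 0.07, Col1a1 by 1.29 ± 0.07 and Fbln2 by 0.51 ± 0.05, and Fbln1 rose by 0.26 ± 0.06. Fibroblast markers below the filter went both ways. Dcn, whose Nrf2-WT mean was at the floor, had 10.8 normalised counts in Nrf2-HET cells. Postn had 5.65 normalised counts in Nrf2-HET and 44.2 in Nrf2-WT cells. Thy1 and Prrx1 were also higher in Nrf2-HET cells, and Col1a2 and Col3a1 lower. Of 12 muscle markers both tested ones fell, Acta2 by 1.23 ± 0.06 and Tagln by 0.61 ± 0.07, with sums of 317 and 338 in Nrf2-HET libraries, against 1006 and 1049 in Nrf2-WT libraries, and Myod1 at the floor. Below the filter Myh11 was higher, with 4.91 normalised counts in Nrf2-HET and 1.02 in Nrf2-WT cells. Cnn1 was lower, with 4.30 in Nrf2-HET and 13.9 in Nrf2-WT cells. The part of these genes in the Hox differences was not tested.

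The remaining marker lists are given by their tested members. Of 13 simple columnar and gastric markers 4 were tested and all 4, the keratins Krt7, Krt8, Krt18 and Krt19, fell, by between 0.32 and 0.94, with the gastric genes Muc5ac, Tff1, Tff2 and Gkn2 at the floor. Their sums were 17594 and 17730 in Nrf2-HET libraries, against 29888 and 30028 in Nrf2-WT libraries. Squamous markers summed to between 196956 and 206916 in Nrf2-HET libraries and between 191343 and 200339 in Nrf2-WT libraries, with 4 higher and 4 lower of 16. Of 10 endothelial and 11 immune markers 1 each was tested, Egfl7, which was not called, and Cd68, which rose by 0.67 ± 0.07, while Ptprc, the pan-leukocyte gene, was at the floor. Of 8 neural crest and glia markers 2 were tested, and Erbb3 fell by 0.27 ± 0.05.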

How the data were processed

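The deposited file holds variance-stabilised log2 values for 24444 genes in 4 libraries, made by the authors from normalised counts. The genome build in the submitters' processing notes is mm9, and the tools listed there, without roles, include Salmon 0.11.3, STAR 2.5.2b and DESeq 1.22.2, and per the labels' protocols TRIzol RNA went into NEBNext Ultra libraries. The sources used here give neither annotation nor strand setting. The series' design text describes a human cell line and conflicts with all sample labels, which were followed. HET and WT values of both replicate numbers have equal sums in every gene (to 1.31e-13), so the deposited values are centred on the number. The centring is where the pairing comes from, a block for the number was therefore used, and what replicates share otherwise is not stated.

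Normalised counts are q = (v - f)² / v, with v the antilog (base 2) of the value and f that of the floor. In genes with reads in 1 library only, 100% of counts were whole multiples of 1 read (within 0.001 reads). The same check did not succeed for genes with reads in several libraries, most Hox genes among them, so their normalised counts and folds are approximate. Estimated depth was 12610000 to 15150000 reads per library, and low genes are least precise. limma 3.58.1 in R 4.3.3 (lmFit, eBayes with trend, 1 residual degree of freedom) was tested on simulated data. Differences are Nrf2-HET minus Nrf2-WT ± moderated SE over 2 pairs. The alternatives were the block, filters, scalings, empirical Bayes settings and leaving out each library. Tested Hox genes are named, with up to 5 untested ones of highest mean and other low ones, and up to 4 called genes per list with the largest change; other list genes, such as Ezh2, Ctcf, Pax9, Rarb and the Meis genes, were named after their values were seen. Some genes that these rules name are not reported here. Members and lists were chosen with earlier results of these data known. Sequences are from RefSeq and neighbours and lengths from RefSeq and GENCODE vM21 on GRCm38, not mm9.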

Additional observations from a re-analysis of the deposited data

How the results depend on the processing

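Of 14 tested Hox genes 8 were called (7 lower, 1 higher), against 40.4% of all genes tested. The 7 include Hoxa5 and Hoxc6, which entered through the Nrf2-WT libraries alone. The count of called Hox genes was also 8 after median centring, with robust empirical Bayes and without a mean-variance trend, and 7 after quantile normalization. Other filters tested other genes, and called 10 of 29 Hox genes with no filter, Hoxb7, Hoxb8 and Hoxc8 among them, and 11 of 22 with the filter on the mean, which was chosen after seeing the data. Of all genes in these fits, 23.5% were called with no filter and 36.6% with the filter on the mean. Hoxb8 and Hoxc8 passed the filter on the mean only through their Nrf2-WT values. A stricter filter of 2 above the lowest value left no Hox gene. The fit with no replicate block called 7 Hox genes, 6 lower and 1 higher, losing Hoxa2 (adjusted p = 0.0567), and 6004 genes in all against 4388. The deposited values are already centred by replicate number, so this fit does not undo the pairing. It counts 2 residual degrees of freedom in place of 1 and is no check of the block. Hoxc5 was lost with no filter and after quantile normalization. Fits that leave out a library used genotype alone on 3 libraries. Equal pair sums mean that the 3 values of a gene fix the one left out, so these fits are no independent check. Leaving out either library of replicate 1 gave the same Hoxa2 difference of -0.19, and either of replicate 2 gave -0.32. Over all genes 2333 calls were higher and 2055 lower. Median centring gave 2048 higher against 2313 lower calls, and quantile normalization 2155 against 2269. Genes with few reads, such as Hoxb8 and Hoxc8, are limited by depth.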
